A study of Mus musculus with 2 samples.

Results

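The genes described here are those of autophagy and of the control of mTORC1, the growth kinase complex that restrains autophagy when amino acids are at hand. They were chosen by gene name, as the ATG, LC3, GABARAP, WIPI, LAMTOR and Rag genes and 17 further names such as Becn1, Sqstm1, Mtor and Tsc2. The rule found 50 genes among 10402 gene symbols. Of these, 46 were at 1 FPKM or more in at least 1 library and were compared with the 9032 genes that met the same minimum. The other 4, Atg9a, Atg2a, Wipi1 and Atg16l2, were below it in both libraries. FPKM are fragments per kilobase of transcript, scaled to all mapped fragments of a library, so that levels of different genes can be set side by side.

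The cells were macrophages of the mouse peritoneal cavity, elicited for 3 days with an agent that the labels call ThG and not activated further. One group was ECM1-sufficient (titled WT) and the other ECM1-deficient (titled KO), where ECM1 is extracellular matrix protein 1, a secreted glycoprotein. Each genotype had 1 RNA sequencing library, called the sufficient and the deficient library below, so no difference below has a replicate check or a test. The labels used here give neither the allele of the deficiency, nor the age of the mice, nor whether animals were pooled. The RNA was of cells in bulk, where fewer cells of a type and less RNA per cell cannot be told apart.

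Autophagy encloses parts of the cytoplasm in a double membrane, the autophagosome, and delivers them to the lysosome. The ULK kinase complex starts the process, the class III PI3-kinase complex marks the site with a lipid, and a conjugation machinery like that of ubiquitin attaches small ATG8 proteins, the LC3 and GABARAP proteins, to the growing membrane. Cargo receptors bind ATG8 on one side and ubiquitinated cargo on the other. On the lysosome, the Ragulator scaffold and the Rag GTPases recruit mTORC1 when amino acids are sufficient, and Rheb, which the TSC complex switches off, activates it there. Macrophages use these pathways to digest engulfed material, bacteria and their own organelles.

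A difference is the deficient library's log2(FPKM + 1) less that of the sufficient library, a scale that understates the differences of weakly expressed genes. A gene is called higher or lower where FPKM + 1 differed at least 2-fold, a difference of 1 or more in size, and within 2-fold otherwise. Folds printed for single genes are plain ratios of FPKM, which for weakly expressed genes can exceed 2 without such a call. The check of the genotype held its labelled direction, with Ecm1 at 5.63 FPKM in the ECM1-sufficient and 1.02 FPKM in the ECM1-deficient library. Most genes of any kind were at a greater level in the deficient library: the median difference of the 9032 genes was 0.61, and among genes that reached 1 FPKM in each library the median ratio was 1.73, or 0.79 on the log2 scale. A second value, relative to the median gene, is the difference once that median ratio was divided out. Macrophage markers were well expressed, with Cd68 at 401 and 689 FPKM and Adgre1 at 31.0 and 64.7 FPKM, sufficient library first, the order of all pairs of values below. Of 10 macrophage markers, 8 had values, of which 4 were higher and 0 lower, beside 14.8% and 2.17% of all genes. They summed to 514 and 920 FPKM, while Cd163 and Timd4 were not analysed here. Of 22 markers of neutrophils, B cells, T and NK cells, and mast cells and eosinophils, 8 had values. The neutrophil markers summed to 6.40 and 8.52 FPKM, the B cell markers to 1.51 and 3.92 FPKM and the mast cell and eosinophil markers to 1.47 and 3.09 FPKM. In each of these sums 1 of 2 genes at 1 FPKM or more was higher and 0 lower. Of 6 mesothelial and fibroblast markers, 5 had values, which summed to 35.3 and 57.2 FPKM, with 1 higher and 0 lower. The part of these cells in the results below was not tested.

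**Figure D1:**
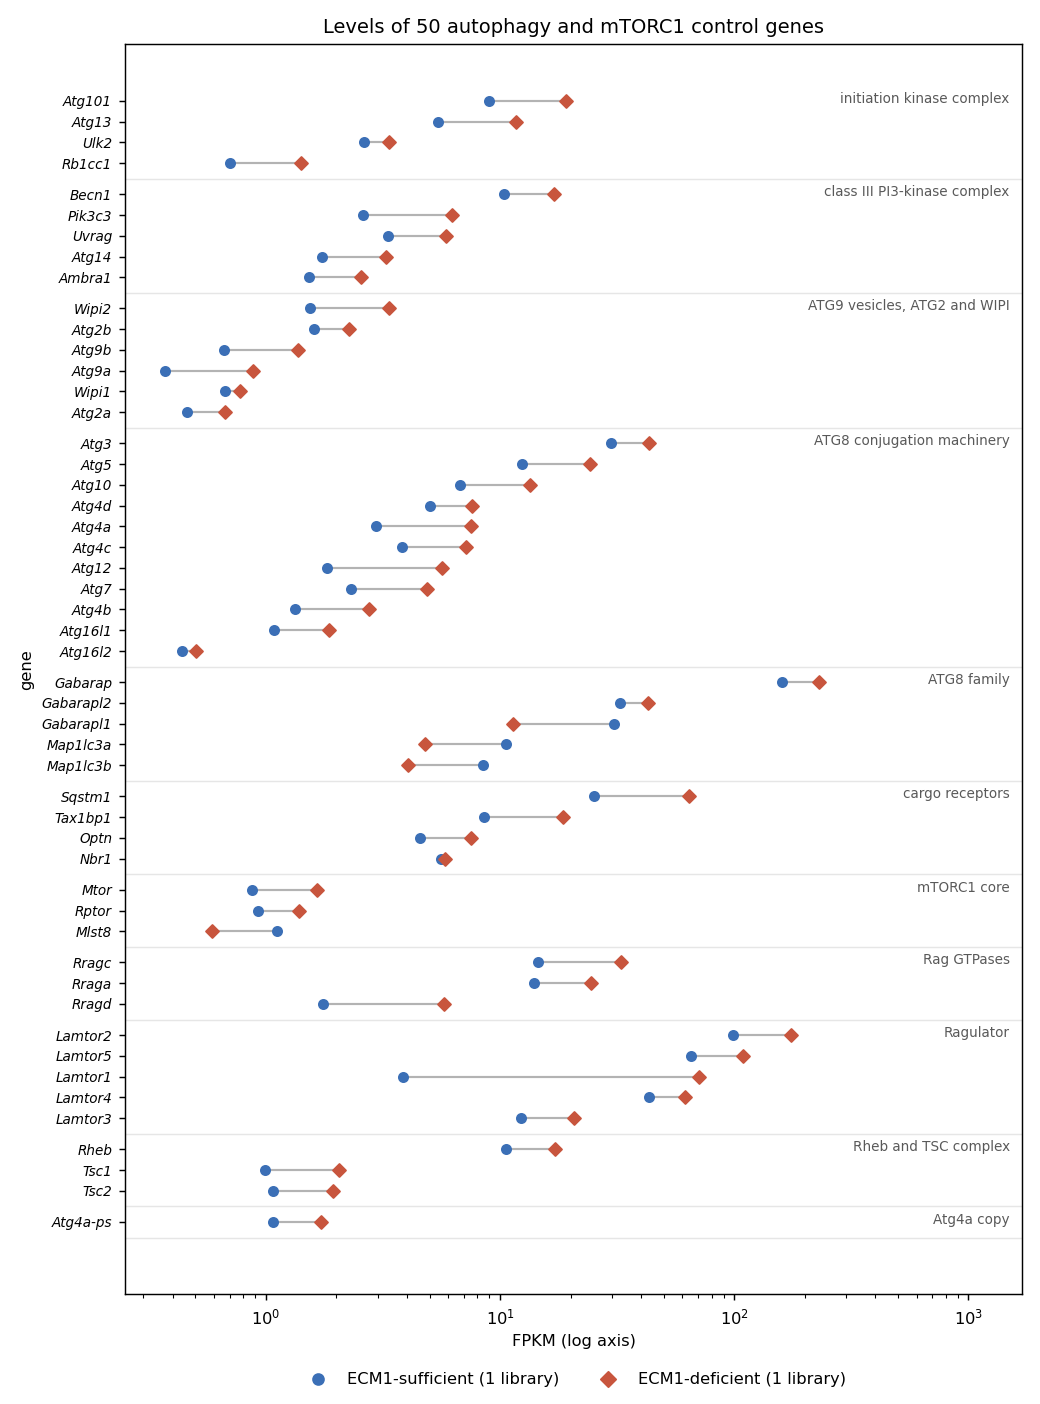
FPKM of the 50 genes on a log axis, 1 row per gene, grouped by role, with a circle for the sufficient and a diamond for the deficient library. The diamond lies to the right in all but 4 rows, Gabarapl1, Map1lc3a, Map1lc3b and Mlst8, and the widest gap is that of Lamtor1.

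As a group, the autophagy and mTORC1 genes followed the general shift between the libraries, and a few members stood away from it. Of the 46 genes, 9 were higher in the deficient library, which is 19.6% against 14.8% of all genes, 2 were lower, which is 4.35% against 2.17% of all genes, and 35 were within 2-fold. The median difference of the group was 0.65, beside 0.61 for all genes. Relative to the median gene the group's median was 0.03, with 1 gene higher and 3 lower, or 2.17% and 6.52%, beside 2.45% and 4.77% of all genes. A difference below 0 was held by 4 of the 46 members and by 9.52% of all genes. The higher genes were Lamtor1, Sqstm1, Rragd, Atg12, Rragc, Atg4a, Tax1bp1, Atg101 and Pik3c3, and the lower ones were Gabarapl1 and Map1lc3a. None of the 50 genes was listed at 0 in either library.

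Some calls lay close to the threshold. Just inside it were Pik3c3 at 1.01, Atg101 at 1.02 and Tax1bp1 at 1.04. Just outside it were Atg13 at 0.98, Atg5 at 0.92 and Atg10 at 0.89. On the lower side Map1lc3a, at a difference of -1.01, was inside and Map1lc3b, at -0.90, was outside. Calls were unevenly spread over levels: of the 16 members whose higher FPKM was under 5, 0 were higher or lower, whereas of the 17 members from 5 to under 20 FPKM 6 were higher and 1 lower, and of the 13 members at 20 FPKM or more 3 were higher and 1 lower. Over all genes, 7.33%, 22.0% and 23.0% were higher in these 3 ranges, and 1.63%, 2.14% and 3.85% were lower. The lowest range thus had the smallest shares of calls over all genes too.

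**Figure D2:**
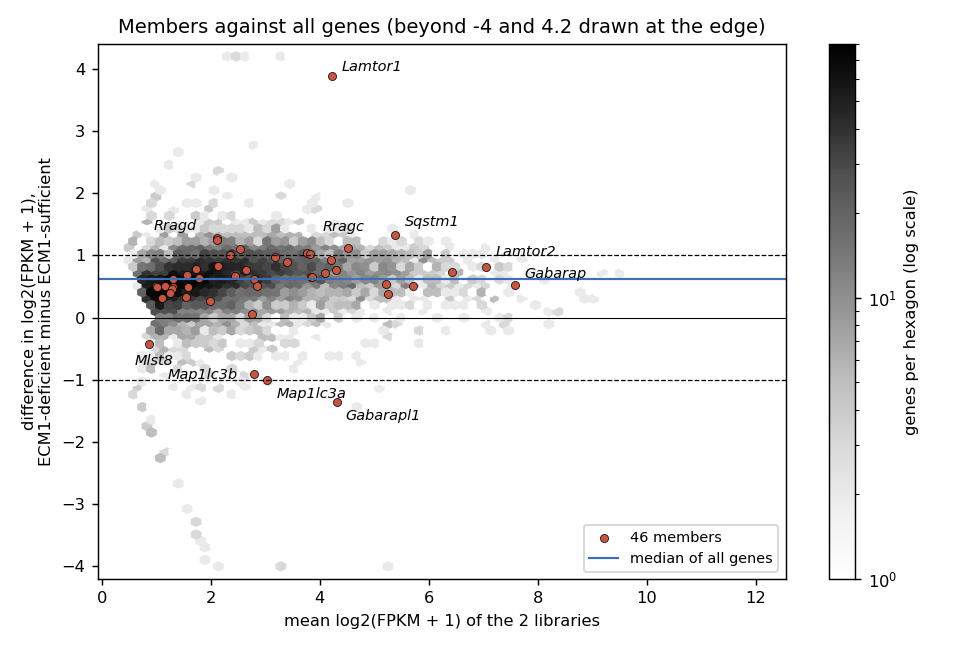
Difference in log2(FPKM + 1) between the genotypes against the mean level, for 46 members (points) over all 9032 genes (grey hexagons, with differences beyond the axis drawn at its edge). Dashed lines mark 2-fold and the blue line the all-gene median of 0.61. Most members lie around that line, with Lamtor1 at 3.88 far above it and Gabarapl1 at -1.36, Map1lc3a at -1.01 and Map1lc3b at -0.90 far below it.

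Promoters are shown for 5 members, as examples with and without the letters bound by the MiT family. The MiT transcription factors TFEB, TFE3 and MITF bind the E-box core CACGTG in many lysosomal and autophagy genes and are kept out of the nucleus by active mTORC1. RefSeq promoters on GRCm38.p6, each running from 250 bases before to 50 after the annotated start, matched 42 of the 50 genes. CACGTG, which reads the same on both strands, was found for 8 of the 42, which is 19.0%, in Atg14, Atg3, Atg5, Atg7, Lamtor1, Lamtor4, Rheb and Rragc. It was found for 8.09% of all 27025 genes with such promoters and for 12.3% of the 8014 genes that also had FPKM here. The longer form TCACGTGA, which contains that core, was found for 1 of the 42, Atg3, and for 2.42% of the 8014. A match is letters in a window and not a binding site. Lamtor1 (chr7:101905587-101905886, plus strand) and Rragc (chr4:123917183-123917482, plus strand) were higher and hold 1 core each. The other 5 higher members with a promoter here, Sqstm1, Rragd, Tax1bp1, Atg101 and Atg4a, hold none. Atg3 (chr16:45158579-45158878, plus strand) was within 2-fold and holds 2, as does Lamtor4, also within 2-fold. Gabarapl1 (chr6:129532942-129533241, plus strand) and Map1lc3b (chr8:121590188-121590487, plus strand) hold none in these windows. Both are ATG8 genes with less FPKM in the deficient library, Gabarapl1 called lower and Map1lc3b within 2-fold. For Map1lc3a no promoter was used here. Capitals mark CACGTG.
Lamtor1: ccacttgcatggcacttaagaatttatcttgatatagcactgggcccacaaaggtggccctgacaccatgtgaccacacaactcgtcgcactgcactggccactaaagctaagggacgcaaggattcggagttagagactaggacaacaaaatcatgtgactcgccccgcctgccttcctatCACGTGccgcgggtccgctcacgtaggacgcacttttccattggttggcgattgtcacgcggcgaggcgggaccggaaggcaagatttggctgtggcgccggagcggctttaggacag
Rragc: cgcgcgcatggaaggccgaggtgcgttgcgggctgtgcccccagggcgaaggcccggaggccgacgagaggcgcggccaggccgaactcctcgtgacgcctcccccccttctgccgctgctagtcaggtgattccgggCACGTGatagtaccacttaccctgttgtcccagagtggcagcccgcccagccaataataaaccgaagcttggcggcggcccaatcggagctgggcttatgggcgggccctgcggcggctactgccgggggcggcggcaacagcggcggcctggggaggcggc
Atg3: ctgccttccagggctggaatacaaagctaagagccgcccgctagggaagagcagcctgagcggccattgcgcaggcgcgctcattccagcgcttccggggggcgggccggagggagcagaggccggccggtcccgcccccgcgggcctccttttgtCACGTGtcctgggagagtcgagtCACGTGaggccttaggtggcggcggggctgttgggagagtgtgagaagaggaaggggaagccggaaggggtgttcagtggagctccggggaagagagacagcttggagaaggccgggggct
Gabarapl1: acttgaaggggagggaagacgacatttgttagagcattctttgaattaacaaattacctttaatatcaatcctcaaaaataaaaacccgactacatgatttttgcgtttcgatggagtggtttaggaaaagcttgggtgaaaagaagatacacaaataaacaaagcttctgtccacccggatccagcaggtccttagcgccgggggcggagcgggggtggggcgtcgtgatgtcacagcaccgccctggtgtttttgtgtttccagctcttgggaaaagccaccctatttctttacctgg
Map1lc3b: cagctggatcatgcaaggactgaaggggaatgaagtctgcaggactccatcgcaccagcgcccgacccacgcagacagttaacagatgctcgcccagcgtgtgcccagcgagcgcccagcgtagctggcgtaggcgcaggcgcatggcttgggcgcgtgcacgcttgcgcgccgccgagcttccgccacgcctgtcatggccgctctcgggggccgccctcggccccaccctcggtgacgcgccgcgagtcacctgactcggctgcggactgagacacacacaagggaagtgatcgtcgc

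The ATG8 family, the ubiquitin-like proteins that coat the autophagosome, was divided between the libraries. Gabarapl1, Map1lc3a and Map1lc3b had less FPKM in the deficient library, and Gabarap and Gabarapl2 had more. Of the 5 genes 0 were higher and 2 lower, beside 14.8% and 2.17% of all genes. Gabarapl1 was at 30.8 FPKM in the sufficient against 11.4 FPKM in the deficient library, or 2.71-fold lower, with a difference of -1.36 and of -2.10 relative to the median gene. Its gene, of at most 5 exons, lies on chromosome 6 from 129533160 to 129542346. Map1lc3a, one of the LC3 genes, on chromosome 2 from 155276297 to 155278073, was at 10.6 and 4.78 FPKM, 2.22-fold lower. Map1lc3b, which encodes the LC3 protein most used to follow autophagosomes, on chromosome 8 from 121590361 to 121598760, was at 8.47 and 4.06 FPKM, 2.09-fold lower by that ratio and within 2-fold on the scale with 1 added. Relative to the median gene the differences of Map1lc3a and Map1lc3b were -1.69 and -1.57, so that all 3 genes were past 2-fold there. On that scale 4.77% of all genes were lower.

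Gabarap and Gabarapl2 differed little beside the common shift. Gabarap, by far the most abundant of the family, was at 159 and 229 FPKM, 1.44-fold higher, with a difference of 0.52 and of -0.26 relative to the median gene. Gabarapl2, also known as GATE-16, was at 32.6 and 42.6 FPKM, 1.31-fold higher, with a difference of 0.38 and of -0.39 relative to the median gene. Gabarap thus turned below 0 relative to the median gene, but was at 0.07 with the FPKM sums of the libraries made equal. Gabarapl2 turned under both scalings, at -0.06 with equal sums. The lower direction of the other 3 genes was the same under every scaling used.

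Because FPKM is per length, the makeup of the family can be given as shares. Gabarap made up 65.9% of the family's FPKM in the sufficient and 78.5% in the deficient library. Gabarapl1 went from 12.7% to 3.89%, Map1lc3a from 4.39% to 1.64% and Map1lc3b from 3.50% to 1.39% of the family. Gabarapl2 was at 13.5% and 14.6%. These shares do not depend on the scaling between libraries. Gabarapl1, Map1lc3a and Map1lc3b together had 49.9 and 20.2 FPKM, and the family as a whole 242 and 292 FPKM. Gabarap exceeded Gabarapl1 5.17-fold in the sufficient and 20.2-fold in the deficient library. The 3 genes with less FPKM lie on different chromosomes. No transcript of another gene matched them at 95% identity or more over 150 bases or more. Gabarapl2 has 3 such processed pseudogenes, the nearest, Gm3724, at 99.4% identity over 349 bases. Map1lc3b overlaps the gene model Gm20388 on its own strand, and Gabarapl1 the unclassified model Gm44243, neither with FPKM used here.

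**Figure D3:**
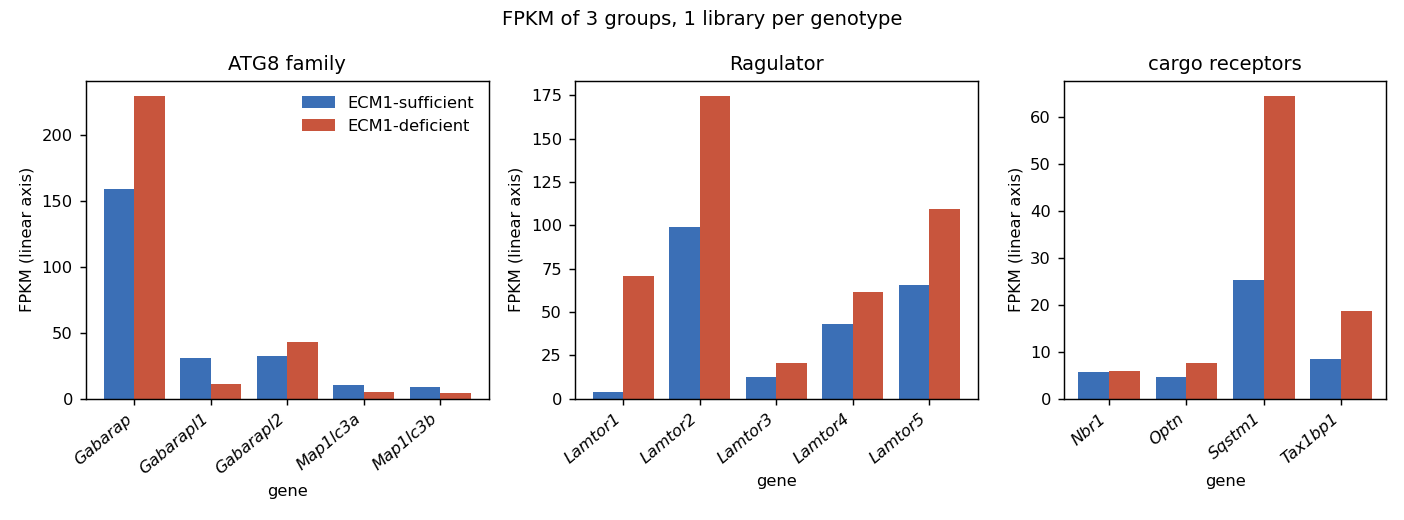
FPKM on linear axes that start at 0 for the ATG8 family, the Ragulator subunits and the cargo receptors, with 1 bar per library. In the ATG8 panel Gabarapl1, Map1lc3a and Map1lc3b have less FPKM in the deficient library. In the Ragulator panel Lamtor1 goes from the lowest subunit at 3.87 FPKM to 70.8 FPKM, and in the receptor panel Sqstm1 goes from 25.2 to 64.3 FPKM.

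The machinery that attaches ATG8 proteins to membranes had more FPKM in the deficient library throughout. The same held for 90.5% of all genes. Of its 10 measured genes 2 were higher and 0 lower, beside 14.8% and 2.17% of all genes. The median difference was 0.80, or 0.18 relative to the median gene. On the latter scale 7 of the 10 were above 0, beside 54.3% of all genes, and 0 were past 2-fold. Atg12, a ubiquitin-like protein that is joined to ATG5, was at 1.82 and 5.68 FPKM, 3.12-fold higher. Atg4a, one of the proteases that trim and release ATG8 proteins, was at 2.96 and 7.49 FPKM, 2.53-fold higher. It is a gene of 13 exons on chromosome X, and a copy of 1 exon on chromosome 3, Atg4a-ps, shares 2115 bases with it at 99.3% identity. Atg4a-ps was at 1.07 and 1.72 FPKM, and how the authors' counting divided reads between the pair is not known.

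The other proteases of the ATG4 family were within 2-fold in FPKM + 1, although the plain ratio of Atg4b was 2.08. Atg4b was at 1.33 and 2.76 FPKM, Atg4c at 3.83 and 7.19 FPKM and Atg4d at 5.01 and 7.59 FPKM. Among the enzymes, Atg7, which activates ATG8 and ATG12 for transfer, was at 2.30 and 4.87 FPKM. Atg10, the transfer enzyme for ATG12, was at 6.74 and 13.4 FPKM. Atg3, the transfer enzyme for ATG8 proteins and the most abundant gene of the set, was at 29.7 and 43.4 FPKM, below the median gene by 0.23. The 3 enzymes were within 2-fold in FPKM + 1, although the plain ratio of Atg7 was 2.12. Atg5, the partner of ATG12, was at 12.4 and 24.3 FPKM. Atg16l1, which places the complex on the membrane, was low at 1.08 and 1.86 FPKM, and its relative Atg16l2 lower still at 0.438 and 0.502 FPKM.

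The kinase complexes that start autophagosome formation lay near the general shift. In the initiation complex 1 of 4 measured genes was higher and 0 lower, beside 14.8% and 2.17% of all genes. The median was 0.74, or 0.20 relative to the median gene. On that scale 3 of the 4 were above 0, beside 54.3% of all genes. Atg101, a small stabilising subunit, was at 8.97 and 19.2 FPKM, 2.14-fold higher, and its partner Atg13, the adaptor of the complex, at 5.42 and 11.7 FPKM. The scaffold Rb1cc1, also called FIP200, was low at 0.704 and 1.41 FPKM. The kinase Ulk2 was at 2.63 and 3.34 FPKM, the least different of the 4 and 0.33 below the median gene. Ulk1, the other kinase, was not analysed here.

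In the class III PI3-kinase group 1 of 5 genes was higher and 0 lower, beside 14.8% and 2.17% of all genes. The median was 0.66. Pik3c3, the lipid kinase VPS34 itself, was at 2.59 and 6.26 FPKM, 2.41-fold higher. Becn1, its regulatory subunit, was the most abundant at 10.3 and 16.9 FPKM. Atg14, which directs the complex to autophagosomes, was at 1.74 and 3.27 FPKM, and Uvrag, which directs it to endosomes, at 3.33 and 5.87 FPKM. Ambra1, a regulator that binds BECN1, was at 1.53 and 2.54 FPKM. Against the median gene the 5 genes lay between -0.07 and 0.39, as low as Becn1 and as high as Pik3c3.

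The genes for membrane supply were weakly expressed. Of the 6 genes of ATG9, the lipid scramblase, of ATG2, the lipid transfer protein, and of the WIPI proteins, which read the PI3-kinase lipid, 3 reached 1 FPKM in a library and 0 were past 2-fold. Wipi2 was at 1.54 and 3.35 FPKM and Atg2b at 1.60 and 2.26 FPKM. Atg9b was at 0.664 and 1.37 FPKM. Atg9a, Atg2a and Wipi1 were between 0.371 and 0.883 FPKM in both libraries. Levels this low can pass 2-fold as a ratio, as Atg9a did at 2.38-fold, without a call on the scale used here.

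The cargo receptors differed among themselves. Of 4 genes 2 were higher and 0 lower, beside 14.8% and 2.17% of all genes, with a median of 0.83. Sqstm1, which encodes p62, a receptor for ubiquitinated cargo and itself degraded by autophagy, lies on chromosome 11 from 50199366 to 50210827. It was at 25.2 and 64.3 FPKM, 2.56-fold higher, with a difference of 1.32 and of 0.55 relative to the median gene. Tax1bp1, another ubiquitin-binding receptor, was at 8.52 and 18.6 FPKM, 2.18-fold higher. Optn, the receptor optineurin, was at 4.57 and 7.54 FPKM. Nbr1, a receptor related to p62, was nearly level at 5.60 and 5.84 FPKM, which was 0.62 below the median gene. Sqstm1 FPKM exceeded those of Nbr1 4.49-fold in the sufficient and 11.0-fold in the deficient library, and those of Map1lc3b 2.97-fold and 15.8-fold.

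On the lysosomal side, 1 Ragulator subunit differed far more than any other member. Lamtor1, also called p18, whose lipid tail anchors Ragulator to the lysosome and which wraps the other subunits, lies on chromosome 7 from 101905904 to 101926675 and has at most 5 exons. Its level was 3.87 FPKM in the sufficient against 70.8 FPKM in the deficient library, or 18.3-fold higher, with a difference of 3.88 and of 3.17 relative to the median gene. Of the 9032 genes, 15 had a greater difference. The other 4 subunits were within 2-fold. Lamtor2 was at 98.9 and 175 FPKM, Lamtor3 at 12.3 and 20.8 FPKM, Lamtor4 at 43.1 and 61.6 FPKM, and Lamtor5 at 65.5 and 109 FPKM. Their differences ran from 0.51 to 0.81, close to that of the median gene.

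Lamtor1 was thus the lowest of the 5 subunits in the sufficient library and the third highest in the deficient library. It made up 1.73% of Ragulator FPKM in the sufficient and 16.2% in the deficient library. The median level of the other 4 subunits was 14.0-fold that of Lamtor1 in the sufficient and 1.21-fold in the deficient library. Of processed pseudogenes of Lamtor1, Gm5510 shares 486 bases at 98.4% identity and Gm13077 484 bases at 96.5%, neither with FPKM used here, and how the authors' counting placed reads of these stretches is not known. On the opposite strand the gene overlaps Tomt and Lrrc51, also without FPKM used here. Their part in the difference was not tested. Lamtor3 and Lamtor5 have near-identical pseudogenes too, 1 and 2 in number, and the placing of their reads is not known either.

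The Rag GTPases, which work as pairs of RagA or RagB with RagC or RagD, had more FPKM in the deficient library. The same held for 90.5% of all genes. Of 3 measured Rag genes 2 were higher and 0 lower, beside 14.8% and 2.17% of all genes. Their median was 1.13, and 0.37 relative to the median gene, where 0 of the 3 were past 2-fold. Rragc was at 14.5 and 32.7 FPKM, 2.26-fold higher. Rragd, its weakly expressed alternative, was at 1.76 and 5.74 FPKM, 3.26-fold higher. Rraga, a gene of 1 exon, was at 14.0 and 24.6 FPKM, within 2-fold and at 0.03 relative to the median gene, where the median of all genes was also 0.03. Rragc and Rraga were near each other in both libraries, and Rragc exceeded Rragd 8.22-fold and 5.71-fold. Rragb was not analysed here.

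The core of mTORC1 was expressed at a low level. The kinase Mtor was at 0.874 and 1.65 FPKM, and Rptor, the subunit raptor that binds substrates, at 0.924 and 1.38 FPKM. Mlst8, a small subunit that binds the kinase domain, was at 1.12 and 0.588 FPKM, 1.91-fold lower, with a difference of -0.42 and of -0.77 relative to the median gene. The ratio of Mlst8 to Mtor was 1.28 in the sufficient and 0.356 in the deficient library. The number of reads behind these levels is unknown.

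Rheb and its inhibitors differed in parallel. Rheb, the GTPase that activates mTORC1, was at 10.5 and 17.2 FPKM. Tsc1 was at 0.993 and 2.06 FPKM and Tsc2, the subunit that inactivates Rheb, at 1.07 and 1.93 FPKM. All 3 were within 2-fold in FPKM + 1, although the plain ratio of Tsc1 was 2.07, with differences from 0.50 to 0.66, and lay between -0.07 and 0.16 relative to the median gene.

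**Figure D4:**
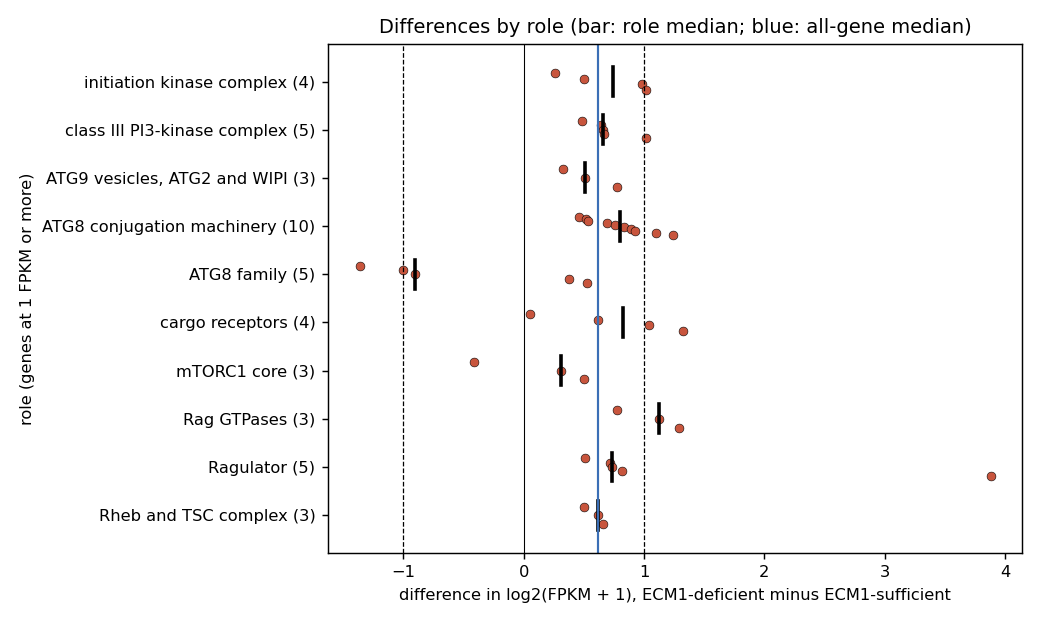
Differences in log2(FPKM + 1) of the measured members, 1 row per role with the number of genes, a black bar at the role's median, a blue line at the all-gene median of 0.61 and dashed lines at 2-fold. The ATG8 family is the row with a median below 0, at -0.90, and the Rag GTPases have the highest median, at 1.13.

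Other genes of the pathways, taken from 4 lists, are read against the 14.8% of all genes that were higher and the 2.17% that were lower. Of 32 measured further autophagy factors 8 were higher and 0 lower, with a median of 0.78. Among them Nrbf2, a subunit of the class III PI3-kinase complex, was at 3.90 and 10.6 FPKM. Vcp, the ATPase that extracts ubiquitinated proteins, was at 15.5 and 36.8 FPKM. Sh3glb1, a membrane-bending protein that binds UVRAG, was at 13.1 and 30.4 FPKM, and Phb2, a mitochondrial prohibitin, at 7.30 and 16.7 FPKM. Against the median gene 0 of the 32 were higher and 1 was lower, the mitophagy receptor Bnip3, at 12.4 and 9.41 FPKM, a gene singled out after its values were seen.

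Of 15 measured genes of amino acid sensing 3 were higher and 0 lower, with a median of 0.81. Flcn, folliculin, which acts on RagC and RagD, was at 3.45 and 9.47 FPKM. Wdr24, a subunit of GATOR2, was at 0.273 and 1.71 FPKM, and Nprl2, a subunit of GATOR1, at 0.544 and 2.11 FPKM. Wdr24 and Nprl2 met the FPKM minimum in the deficient library alone. Against the median gene 0 of these genes were past 2-fold. Of 24 measured genes upstream and downstream of mTORC1 3 were higher and 1 lower, with a median of 0.56. Stk11, the kinase LKB1 that activates AMPK, was at 2.47 and 10.0 FPKM. Akt2, a kinase that inhibits TSC2, was at 2.10 and 8.65 FPKM. Eif4e, the cap-binding factor, was at 5.91 and 14.9 FPKM. Eif4ebp2, a repressor of EIF4E that mTORC1 inactivates, was at 3.72 and 0.962 FPKM, 3.87-fold lower, and met the minimum in the sufficient library alone. Stk11, Akt2 and Eif4ebp2 were past 2-fold relative to the median gene as well.

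Among the 4 MiT transcription factors 1 was higher and 0 lower. Tfe3 was at 1.05 and 3.62 FPKM, 3.47-fold higher. Tfeb was at 2.23 and 1.78 FPKM, Mitf at 4.34 and 6.47 FPKM, and Tfec at 1.35 and 2.62 FPKM. Against the median gene Tfe3 was at 0.66 and Tfeb at -0.74, and 0 of the 4 were past 2-fold.

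**Figure D5:**
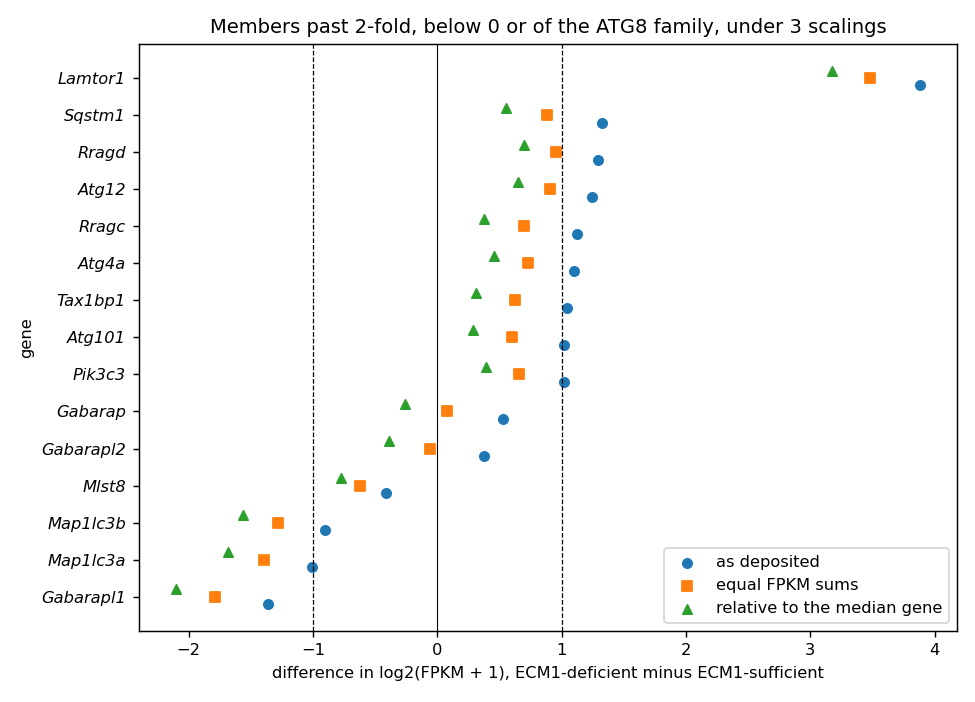
Differences of the members past 2-fold, below 0 or in the ATG8 family under 3 scalings of the libraries, with circles for FPKM as deposited, squares for equal FPKM sums and triangles for values relative to the median gene. Lamtor1 stays above 3 and Gabarapl1, Map1lc3a and Map1lc3b stay below 0 under all 3. Gabarap falls below 0 relative to the median gene alone, and Gabarapl2 also with equal FPKM sums.

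The authors' deposited gene ontology table ranked autophagy terms among those enriched. In the authors' deposited table the term autophagy held 152 of 4944 listed genes, from 362 genes in a background of 23313, a 1.98-fold enrichment with a false discovery rate of 1.70e-19. For autophagosome assembly the authors' deposited table gave 37 of 70 genes, 2.49-fold, with a rate of 2.27e-08, and for TOR signaling 32 of 75 genes, 2.01-fold, with a rate of 6.55e-05. The 4183 genes named in the authors' deposited table that have FPKM here were all at least 1.5-fold higher in FPKM + 1 in the deficient library, and 0 were lower. Their list length of 4944 is close to the 4943 genes that are at least 1.5-fold higher in FPKM + 1 in the deficient library. That share is 47.5% of the 10402 symbols with FPKM, and the listed genes are 21.2% of the authors' background. The enrichments are thus against that larger background and not against the genes with FPKM, of which a greater share was higher.

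Of the 50 members, 26 were at least 1.5-fold higher in FPKM + 1, which is 52.0% beside 47.5% of the 10402 symbols. All 26 were named in the authors' deposited table. The term autophagy in the authors' deposited table held 19 of them, among them Sqstm1, Pik3c3, Becn1, Atg5, Atg7 and Atg12, and TOR signaling held 9, among them Lamtor1, Rragc, Rragd and Rheb. The 3 members at least 1.5-fold lower, Gabarapl1, Map1lc3a and Map1lc3b, had no place in that list, which held genes of one direction.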

How the data were processed

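Elicited mouse peritoneal macrophages gave 1 RNA library of ECM1-sufficient and 1 of ECM1-deficient cells. Per the labels' protocols, polyadenylated RNA was selected and the libraries were strand-specific. The authors deposited FPKM per gene, with log2(FPKM + 1) beside it. The submitters' processing notes name HISAT2, StringTie 1.2.3 and build mm9; 10384 of 10403 gene identifiers were in GENCODE M21, all overlapping the same identifier, 8060 with identical start and end, so positions are given as GRCm38. All deposited p-values and q-values of that comparison are 1 and were not used. The authors' gene ontology table holds a fold ratio and a false discovery rate per term, per the file headers. Read numbers were not used here, so depth is unknown and no counting interval is given; the table holds genes from 0.500 FPKM in the higher library, and FPKM summed to 137135 and 187612. The values of 1 line of the table are not reported here.

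Rows of 1 duplicated symbol were summed, and a minimum of 1 FPKM in at least 1 library was applied. For values relative to the median gene, the median ratio of the 7329 genes that reached 1 FPKM in each library was divided out, shared equally between the libraries on the log scale. Named members were those past 2-fold, below 0, next to the threshold, in the ATG8 family or the most abundant of a role, and the further members are given as values; from other lists up to 4 genes past 2-fold were named. Members and lists were chosen with earlier results of these data known. Exon numbers are the most over any GENCODE M21 transcript; near-identical transcripts were sought with BLAST 2.17.0. Alternatives were other pseudocounts, FPKM minimums, scalings and thresholds, gene models with 3 or more exons, and, added after the data were seen, leaving out members with near-identical copies. The calculation was tested on simulated data.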

Additional observations from a re-analysis of the deposited data

How the results depend on the processing

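With 1 library per genotype no replicate can be left out, and no difference has an error. No paired analysis was possible because each genotype has 1 library. The depth behind the FPKM is unknown, so no counting error can be given for low members.

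Of 46 members, 9 were higher and 2 lower with FPKM as deposited. With a pseudocount of 0.1 these were 13 and 3, and the higher share of 28.3% was then below the 32.6% of all genes. The lower share was 6.52%, beside 2.90% of all genes. With a pseudocount of 5, 2 were higher and 1 lower, or 4.35% and 2.17%, beside 3.17% and 0.985% of all genes. The median was then 0.41 in place of 0.65, beside 0.32 for all genes. After division by the median ratio 1 was higher, beside 2.45% of all genes, and the median was 0.030, and with equal FPKM sums 1 was higher, beside 4.22% of all genes, and the median was 0.29. In each of these 2 scalings 3 were lower, or 6.52%, beside 4.77% and 3.28% of all genes. At 1.5-fold 26 were higher, or 56.5% beside 53.7% of all genes, and 3 lower, or 6.52% beside 3.68%. At 4-fold 1 was higher, or 2.17%, and 0 lower, beside 1.21% and 0.797% of all genes. The count of 9 was the same without an FPKM minimum, at a minimum of 5 FPKM, where it was 30.0% beside 22.4% of all genes, and over gene models with 3 or more exons, and it was 7 without members that have near-identical copies. Division by the median ratio turned the median of Ragulator to -0.025 and that of the mTORC1 core to -0.11. Lamtor1 kept its call and direction under all 9 alternatives that include it, from 3.10 to 4.16, and Gabarapl1 lost its call at 4-fold alone among 10. Map1lc3a lost its call with a pseudocount of 5, at -0.67, and at 4-fold. Map1lc3b passed 2-fold at a pseudocount of 0.1, at -1.04, and under both scalings, at -1.57 and -1.29. Sqstm1 and the other 7 higher genes lost their calls under both scalings and at 4-fold, and all but Sqstm1 also with a pseudocount of 5.

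The counts of the lists are read against the share of all genes that were higher under the same setting. That share was 14.8% as deposited, 32.6% with a pseudocount of 0.1 and 3.17% with one of 5. It was 22.4% at a minimum of 5 FPKM, 53.7% at 1.5-fold and 1.21% at 4-fold. After division by the median ratio it was 2.45%, and with equal FPKM sums 4.22%. Of the further autophagy factors, 8 higher became 1 with a pseudocount of 5, 0 under each scaling and at 4-fold, and 21 at 1.5-fold. After division by the median ratio 1 was lower, beside 4.77% of all genes. Of amino acid sensing, 3 higher became 8 with a pseudocount of 0.1, 0 with a pseudocount of 5, under each scaling and at 4-fold, 1 at a minimum of 5 FPKM and 9 at 1.5-fold. Of genes around mTORC1, 3 higher became 5 with a pseudocount of 0.1 and 1 with a pseudocount of 5. At 1.5-fold 11 of them were higher and at 4-fold 0. The 1 lower became 0 with a pseudocount of 5, at a minimum of 5 FPKM and at 4-fold. Of all genes 0.985%, 2.72% and 0.797% were lower under these settings. Of the MiT factors, 1 higher became 0 with a pseudocount of 5, at a minimum of 5 FPKM, under each scaling and at 4-fold, and 2 at 1.5-fold. The other alternatives left the lists' counts within 1.5 times. Why the scalings differ was not tested.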
